A study of Mus musculus with 2 samples.

Results

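Chains of closely spaced H2A.Z regions were studied in mouse embryonic stem cells. A chain was a run of at least 3 consecutive enriched regions in the looser wild-type list in which no gap to the next region was wider than 1000 bp, on the 17 autosomes other than 6 and 8. Each region of a chain is called an arm. There were 2497 chains with 8459 arms, out of 82835 wild-type regions on these autosomes and 99812 on all chromosomes. The chains were selected on the wild-type region coordinates alone, so run length, spacing, width and covered share in the wild type describe what was chosen and carry no test. The K3R3 regions over the chains were not used by the rule.

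H2A.Z replaces the major histone H2A in a small share of nucleosomes, mostly at promoters and enhancers, where remodelling complexes deposit it. Such nucleosomes often stand on both sides of a nucleosome-poor stretch held open by transcription factors or the transcription machinery. A row of enriched regions with short gaps is one form this can take along a promoter and its neighbouring regulatory sites. The C-terminal tail of H2A.Z can carry a single ubiquitin on lysine, a mark known from silent and poised chromatin and laid down by Polycomb ligases.

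Both libraries came from chromatin immunoprecipitation and sequencing (ChIP-seq) of cells with a YFP-tagged H2A.Z, and in both groups the endogenous H2A.Z transcript was targeted at its 3′ UTR by short hairpins. The first group expressed wild-type H2A.Z-YFP. The second expressed H2A.Z.K3R3-YFP, in which 3 C-terminal lysines are arginines, which cannot carry ubiquitin. In both, the transgene was delivered by lentivirus under a doxycycline-inducible CMV promoter, induced at 1 µg/ml, and YFP-positive cells were sorted. The strain label reads V6.5 (129SvJaexC57BL/6), whereas the protocol names KH2 cells as the transgenic line. The antibody, Abcam Ab290, is directed against GFP and also binds YFP, so the tagged histone was its target. Each group had 1 library. Differences between them therefore rest on single libraries, without any test. Read depth is unknown from region lists. The 95% Wilson intervals given with shares reflect counting error alone, and neighbouring regions are not independent. No gene was assigned to a chain and no sequence is shown, because the gene tables at hand are in GRCm38 and the regions are in mm9.

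Most chains were short. In the wild type 1832 chains (73.4%) had 3 arms, 456 had 4 and 148 had 5. A further 38 had 6 arms, 16 had 7 and 5 had 8. A single chain had 9 arms and a single one had 10. Chains of 6 or more arms thus numbered 61. The median span, from the start of the first arm to the end of the last, was 2900 bp (quartiles 2200 and 3900 bp, range 850 to 16975 bp), and 13 chains spanned at least 10000 bp. By number of arms the median span was 2575 bp for 3 arms, 3750 bp for 4 and 5425 bp for 5.

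**Figure D1:**
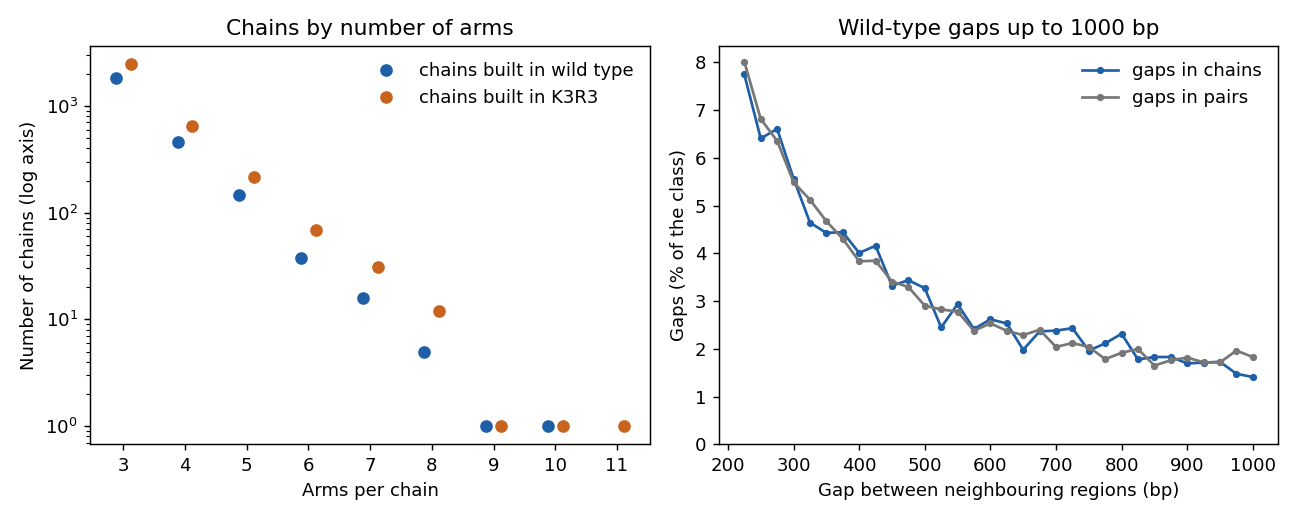
Left, number of chains (log axis) by arms per chain, for chains built in the wild type (blue) and by the same rule in K3R3 (orange); right, percent of wild-type gaps at each width in bp, for chains (blue) and for pairs of regions (grey). Chains of 3 arms number 1832 in the wild type and 2470 in K3R3, and gaps in chains and pairs are commonest at 225 bp in both.

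Arms filled more of a chain than the gaps between them. Over all chains the arms covered 63.2% of a summed span of 8.20 Mb, and the median chain was covered to 61.2% (quartiles 50.3% and 70.6%). The share hardly moved with the number of arms, with medians of 61.1% at 3 arms, 60.3% at 4 and 63.3% at 5. The arms made up 10.2% of the wild-type regions on these autosomes and 12.4% of the length covered by them.

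The spacing inside chains matched that of pairs. The 5962 gaps had a median of 450 bp, with quartiles of 300 and 675 bp. The 8919 gaps of pairs, which are runs of exactly 2 regions under the same limit, had the same median and quartiles. The commonest gap was the narrowest, 225 bp, which is also the smallest gap in any of the lists. Signals closer together than that do not appear as separate regions, whatever the chromatin below them. From midpoint to midpoint, neighbouring arms were a median of 1037.5 bp apart (quartiles 787.5 and 1375 bp).

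Arms were wider than other regions. Their median width was 425 bp (quartiles 225 and 800 bp), against 375 bp in pairs and 325 bp for lone regions, those with no neighbour within 1000 bp. The widest arm of a chain had a median of 900 bp and the narrowest 200 bp. Of the chains, 1123 (45.0%) held an arm of at least 1000 bp and 258 (10.3%) an arm of at least 2000 bp, while in 268 (10.7%) every arm was under 400 bp. The wide arm had no fixed place. In the 3-arm chains the middle arm was the widest in 594 of 1832 (32.4%, 30.3 to 34.6), an end arm was the widest in 1184, and 54 had a tie.

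Most arms had a counterpart in K3R3. An arm was called kept one to one when exactly 1 K3R3 region overlapped it by at least 1 bp and that region touched no other wild-type region. It was split when several K3R3 regions lay over it, fused when a K3R3 region over it also overlapped another wild-type region (such an arm counted as fused even if it was also cut), and lost when no K3R3 region overlapped it. Of the 8459 arms, 5947 (70.3%, 69.3 to 71.3) were kept one to one, 1017 (12.0%, 11.3 to 12.7) were fused, 189 (2.23%, 1.94 to 2.57) were split and 1306 (15.4%, 14.7 to 16.2) were lost. Over all 82835 wild-type regions of these autosomes the shares were 79.6% kept one to one, 2.94% fused, 1.54% split and 15.9% lost. The loss among arms was therefore near that of all regions. By length, K3R3 covered 84.6% of the arms, against 83.8% of the regions in pairs and 83.8% of the lone regions.

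The lower share of one to one arms went with fusion. Regions in pairs were kept one to one in 75.1% (74.4 to 75.7) and fused in 7.85% (7.46 to 8.25), and lone regions were kept one to one in 82.4% (82.1 to 82.7). Fusion needs a close neighbour, and by the rule every arm has at least 1, so this order is partly built into the classes. Within chains, inner arms have a neighbour on either side and end arms have a close one on a single side. Inner arms were fused in 16.6% (15.4 to 17.9) and end arms in 8.83% (8.08 to 9.65), while the loss was 15.2% (14.0 to 16.4) and 15.6% (14.6 to 16.7).

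**Figure D2:**
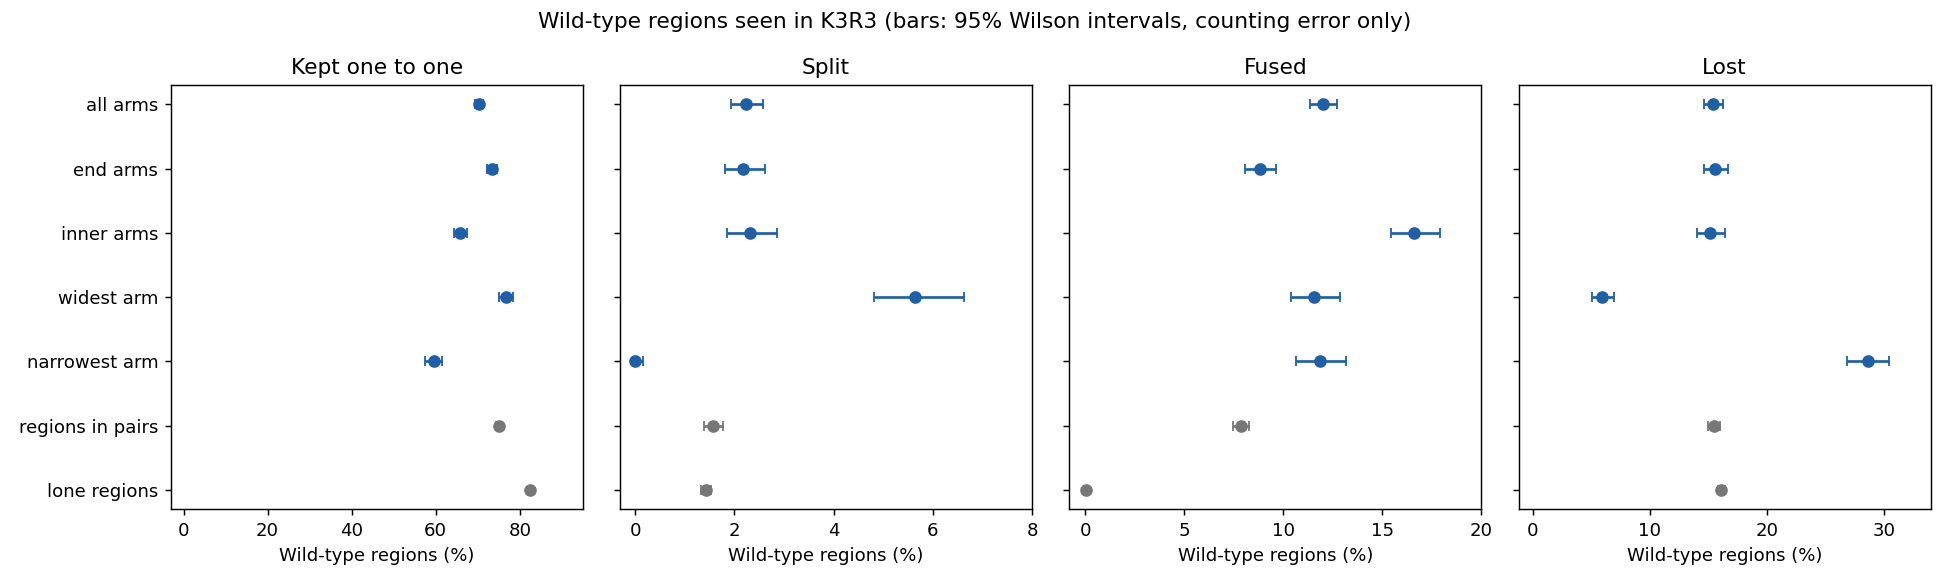
Percent of wild-type regions kept one to one, split, fused or lost in K3R3, for all arms of chains, end arms, inner arms, the widest and the narrowest arm of each chain (blue), regions in pairs and lone regions (grey); points are shares and bars are 95% Wilson intervals. The widest arm was lost in 5.97% and the narrowest in 28.6%, while end arms were lost in 15.6% and inner arms in 15.2%.

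Loss inside a chain followed width. The widest arm was lost in 149 of 2497 chains (5.97%, 5.10 to 6.97) and the narrowest in 715 (28.6%, 26.9 to 30.4). Lost arms had a median width of 200 bp and the other arms of 475 bp. Of arms under 100 bp, 56.8% (52.2 to 61.3) were lost, of those from 400 to under 800 bp 9.88% (8.75 to 11.1), and of those of at least 2000 bp 3.47% (1.90 to 6.27). The fall with width was not particular to chains. In the same width classes lone regions were lost in 48.9%, 9.13% and 2.05%, and regions in pairs in 48.2%, 8.87% and 1.31%. The intervals of end and inner arms overlapped in each of 6 width classes, with for example 34.5% and 36.6% lost from 100 to under 200 bp. Splitting went the other way, which is partly built into the lists. Neighbouring K3R3 regions are at least 225 bp apart, so a narrow arm has little or no room for several of them. None of the 2490 arms from 200 to under 400 bp was split (upper bound 0.154%), against 19.8% (15.6 to 24.8) of the 288 arms of at least 2000 bp, and lone regions of that width were split in 19.1% (16.6 to 21.8).

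Narrow arms of wild-type chains were missing from K3R3 more often than lone regions of the same width. Under 200 bp, 586 of 1383 arms (42.4%, 39.8 to 45.0) were lost, against 36.2% (34.6 to 37.7) in pairs and 33.7% (32.9 to 34.5) of lone regions. From 400 bp upward the intervals of arms and lone regions overlapped in each of 3 width classes, while from 200 to under 400 bp arms were again lost more often, in 15.3% (13.94 to 16.8) against 13.4% (12.9 to 13.92). With the arms' own widths as weights, lone regions would be lost in 13.3% and pairs in 14.0%, against the 15.4% seen. Turning the comparison round gave the opposite order for narrow regions. In chains built by the same rule in K3R3, arms under 200 bp had no wild-type region over them in 60.8% (58.6 to 63.0), against 65.1% (64.4 to 65.8) of lone K3R3 regions. From 200 to under 400 bp K3R3 arms were again the lower, with 28.6% (27.2 to 30.12) against 30.7% (30.11 to 31.3), though the intervals just overlapped. From 400 to under 800 bp the order was that of the wild type, with 16.9% (15.7 to 18.2) of K3R3 arms and 15.0% (14.5 to 15.6) of lone K3R3 regions. At the K3R3 arms' own widths, lone K3R3 regions would be missing in 25.4% and pairs in 24.2%, against 24.8% of the arms. Under 200 bp, the order of arms and lone regions therefore depended on the library in which the chains were built.

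**Figure D3:**
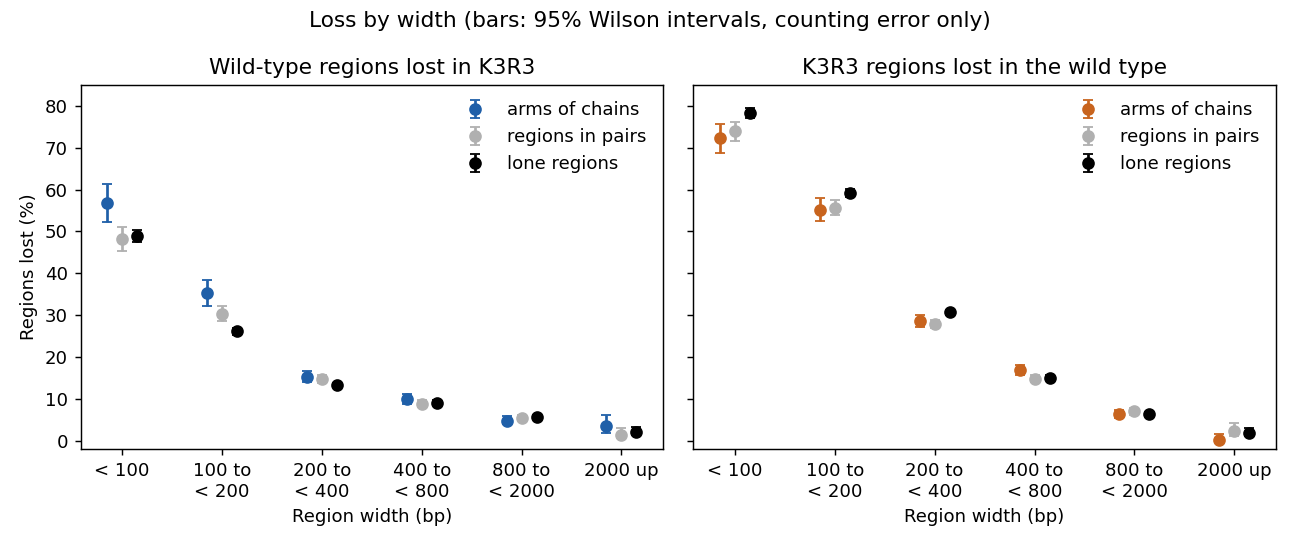
Percent of regions lost by width class in bp, left for wild-type regions with no K3R3 region over them and right for K3R3 regions with no wild-type region over them; coloured points are arms of chains, light grey points pairs and black points lone regions, with 95% Wilson intervals. Arms under 200 bp lie above lone regions on the left and below them on the right.

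A lost arm seldom left the neighbourhood empty. The nearest K3R3 region was a median of 500 bp away, and for 1118 of 1306 lost arms (85.6%) it lay within 1000 bp. Among lost regions of pairs this held for 75.3% and among lost lone regions for 9.55%. That order follows from the rule, since the neighbouring arms are themselves mostly kept. The stricter K3R3 list, which is not a subset of the looser one, held a region over 206 of the lost arms. The remaining 1100, or 13.0% of all arms, were missing from both K3R3 lists, against 12.8% of regions in pairs and 13.5% of lone regions.

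Gaps were bridged almost only where they were narrow. A gap was called bridged when 1 K3R3 region overlapped the arms on either side. This held for 534 of 5962 gaps in chains (8.96%, 8.26 to 9.71), against 8.28% of all gaps of at most 1000 bp between wild-type regions. Gaps of 225 to 300 bp were bridged in 25.3% (23.2 to 27.5), gaps of 325 to 400 bp in 6.89% (5.51 to 8.59), and gaps of 825 to 1000 bp in 0.623% (0.267 to 1.45). At the same widths the gaps of pairs were bridged in 23.0% (21.3 to 24.7), 4.75% (3.81 to 5.91) and 0.155% (0.0426 to 0.564). The chain value was the higher in all 5 width classes, though the intervals overlapped in each. The reverse did not show this order. In chains built in K3R3, 6.75% (6.23 to 7.30) of gaps were bridged by a wild-type region, against 6.99% (6.54 to 7.47) in pairs and 6.89% of both together.

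**Figure D4:**
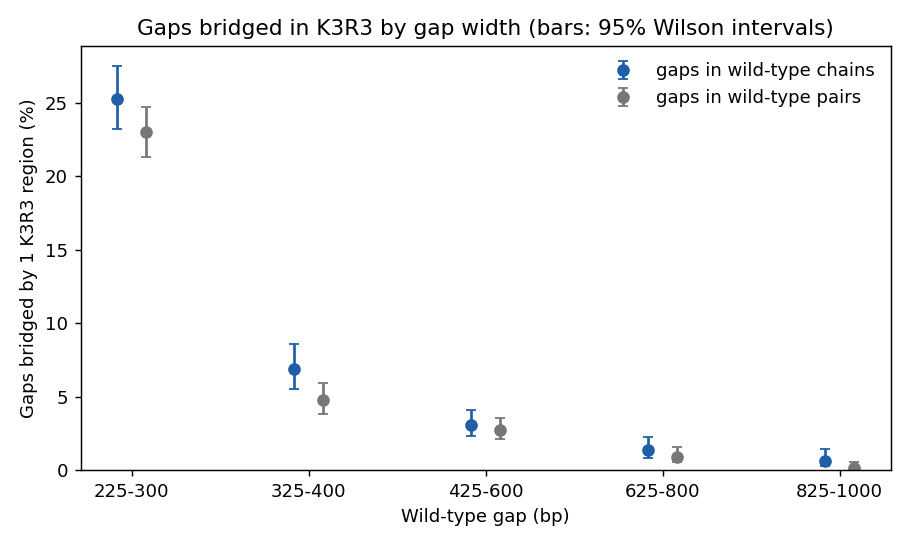
Percent of wild-type gaps bridged by 1 K3R3 region, by gap width in bp, for gaps in chains (blue) and in pairs (grey), with 95% Wilson intervals. Bridging falls from 25.3% at 225 to 300 bp to 0.623% at 825 to 1000 bp in chains.

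Fusion mostly joined just 2 neighbours. Of the 483 K3R3 regions that lay over several wild-type regions with a chain among them, 432 covered 2, 48 covered 3 and 3 covered 4. Their median width was 1400 bp. At least 1 gap was bridged in 469 chains (18.8%, 17.3 to 20.4), and in 30 chains (1.20%) every gap was bridged.

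Where 2 neighbouring arms were both kept one to one, their spacing was nearly the same in both libraries. There were 3137 such gaps among the 5962 in chains, and their median was 475 bp in either library. The condition leaves out bridged gaps and gaps beside a lost arm, so nearness is in part built in. The K3R3 gap was within 100 bp of the wild-type gap in 81.7%. It was narrower in 46.3%, wider in 37.7% and equal in 16.0%. The distance between the midpoints changed by a median of 37.5 bp. Pairs gave like values, with 82.2% of 5566 gaps within 100 bp.

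Arms kept one to one were on average slightly wider in K3R3, and by less than lone regions. The K3R3 region was wider in 47.4% of the arms and narrower in 37.8%, against 54.4% wider over all one to one regions. The mean log2 of the K3R3 width over the wild-type width was 0.047 in chains, 0.091 in pairs and 0.18 for lone regions. Chains built in K3R3 gave the mirror image, where the mean log2 of the wild-type width over the K3R3 width was -0.18 in chains and -0.14 for lone regions. In either direction, the other library's regions were narrower, relative to lone regions, over chains. An arm whose counterpart reaches a neighbouring arm counts as fused and is left out here. That removes widened counterparts from chains more than from lone regions, so this order is partly built into the classes.

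Additions inside chains were rare. A K3R3 region was called added when no wild-type region overlapped it and its midpoint lay within a chain's span. There were 60, in 60 different chains, among the 6788 K3R3 regions with their midpoint in a chain. Over all K3R3 regions of these autosomes, 30.2% had no wild-type region over them, but a chain offers little free room and the 2 shares do not compare like with like. The added regions had a median width of 112.5 bp and lay in gaps of a median of 800 bp. Beside 34 of them both neighbouring arms were kept, beside 24 an arm was lost and beside 2 both were. Per 100 runs there were 2.40 additions in chains and 1.08 in pairs, but a pair has a single gap. By gap the shares were close, with 60 additions in 5962 gaps of chains and 96 in 8919 gaps of pairs.

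K3R3 regions without a wild-type region over them also lay beyond the ends. By the rule, no wild-type region lies within 1000 bp outside the ends of a run. A K3R3 region wholly in that stretch therefore has no wild-type region over it, and its count does not compare with that inside chains. Over all K3R3 regions of these autosomes the share without a wild-type region was 30.2%. Within 1000 bp outside the ends of chains there were 348 K3R3 regions without a wild-type region over them, at 333 chains (13.3%, 12.1 to 14.7). Beside pairs this held for 10.5% (9.91 to 11.2) of runs and beside lone regions for 9.20% (8.96 to 9.44). The reverse gave the same order. Wild-type regions without a K3R3 region over them lay within 1000 bp outside the ends of 7.08% of K3R3 chains. For K3R3 pairs the share was 5.71% and for lone K3R3 regions 4.44%. Every run has 2 ends whatever its length, so the classes offer the same room, but the surroundings of chains are also denser in regions of either library. How far that density sets the order was not tested.

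As wholes, chains were often thinned and seldom removed. Every arm was kept one to one in 994 chains (39.8%, 37.9 to 41.7), and in 506 (20.3%) every arm had a counterpart but some were split or fused. In 977 (39.1%) some arms were lost, and in 20 (0.801%, 0.519 to 1.23) all of them. Any lost arm thins a chain while removal needs every arm lost, so this order is partly built in. By number of lost arms, 1500 chains lost none, 733 lost 1, 222 lost 2 and 42 lost at least 3. The share of chains with every arm one to one fell from 44.2% at 3 arms to 32.2% at 4, 20.9% at 5 and 11.5% (5.67 to 21.8) of the 61 chains of 6 or more. Such a fall with arm number arises even at an equal share per arm. Per arm, the one to one share was 71.1%, 70.2%, 66.4% and 66.9% in the same order. The loss per arm did not fall or rise steadily, with 15.8% in chains of 3 arms, 13.8% in 4, 17.4% in 5 and 14.8% in 6 or more.

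In the 3-arm chains the middle arm alone was lost in 149 (8.13%) and a single end arm in 373 (20.4%). Such a chain has 2 end arms and 1 middle arm. Both end arms without the middle were lost in 39, and the middle with 1 end in 105.

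Most wild-type chains were touched by a K3R3 chain. Under the same rule a K3R3 chain, which may reach past the wild-type ends, lay over 1505 of the 2497 wild-type chains (60.3%, 58.3 to 62.2). Over 668 chains K3R3 had a pair at most, over 305 a lone region at most, and over 19 nothing. When only K3R3 regions over the wild-type span were counted, 1386 chains (55.5%, 53.6 to 57.4) held a K3R3 chain. Of the 20 chains that lost every arm, 1 held an added region. A K3R3 chain was more frequent over chains with a wide arm. K3R3 had a chain over 42.5% of the 268 chains whose arms were all under 400 bp, and over 56.0% of those with a widest arm of 400 to under 1000 bp. The share was 68.6% for a widest arm of 1000 to under 2000 bp. It was close to that, 69.4%, for the 258 chains with an arm of at least 2000 bp. Chains with a wide arm also had more arms, with 827 in those 268 chains and 978 in those 258. The part of arm number in this order was not tested. Of the chains that lost every arm, 9 had arms under 400 bp alone.

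On these 17 autosomes the same rule found more chains in K3R3 than in the wild type. K3R3 had 3448 chains with 11836 arms, or 11.8% of its 99976 regions. The ratio of K3R3 to wild type was 1.38 for chains, 1.28 for pairs and 1.21 for regions, and the ratio for chains was above that for regions on each of the 17 autosomes. A longer list places more regions near each other, so list length moves with the number of chains, and its part was not tested. Spacing was alike, with a median gap of 450 bp in K3R3 chains, and so was the covered share of 62.1%. Of the K3R3 arms, 63.8% were kept one to one in the wild type, 2.20% were split and 9.12% fused, against 65.9%, 1.15% and 2.68% of all K3R3 regions. No wild-type region lay over 24.8% (24.1 to 25.6) of the arms, against 30.2% of all K3R3 regions, a gap that nearly closed at equal width, where lone regions would reach 25.4%. The wild type had a chain over 43.4% (41.7 to 45.0) of the K3R3 chains, a pair at most over 31.7%, a lone region at most over 22.4% and nothing over 2.55%.

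Counts over a chain favoured the library it was built in. Over wild-type chains the wild type covered 63.2% of the span and K3R3 58.1%, and K3R3 had fewer regions than arms in 1301 chains (52.1%), as many in 1065 and more in 131. Over K3R3 chains it was the wild type that had fewer, in 64.3%, and it covered 50.1% of the span. The direction of these counts thus turned with the library in which the chains were built.

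Chains were unevenly spread. They made up from 5.37% of the wild-type regions on chromosome 13 to 13.9% on chromosome 11, and chromosomes rich in regions had the larger share (Spearman rho 0.80 over 17 chromosomes, where short gaps follow from density). Chromosome 11 had 297 chains, or 2.44 per Mb up to its last region, and chromosome 3 had 80, or 0.501 per Mb. The loss among arms ranged from 10.2% on chromosome 18 to 20.8% on chromosome 3, and was below that of all regions on 12 of the 17 autosomes. Chains also lay near each other. The nearest other chain was a median of 52000 bp away, and 519 chains (20.8%) had another within 10 kb. The densest 1 Mb window was on chromosome 2 between 167 and 168 Mb, with 27 chains and 101 arms, of which 14 were lost; chains built in K3R3 also numbered 27 there. On chromosome 11 between 117 and 118 Mb there were 16 wild-type and 27 K3R3 chains, and on chromosome 7 between 52 and 53 Mb there were 15 and 11.

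The chain with the most arms was kept whole. It had 10 arms on chromosome 2 (155443226 to 155459725), spanned 16500 bp and was covered to 72.6%. Its arms were 500, 650, 275, 825, 325, 1025, 2300, 650, 1575 and 3850 bp wide. K3R3 had 10 regions there, of 475, 625, 300, 900, 325, 1100, 2325, 925, 1575 and 3425 bp, each over a single arm. The covered length was 11975 bp in both libraries. The 10 K3R3 regions form 1 chain, which has the longest span of any in that library, 16100 bp, and the second most arms.

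**Figure D5:**
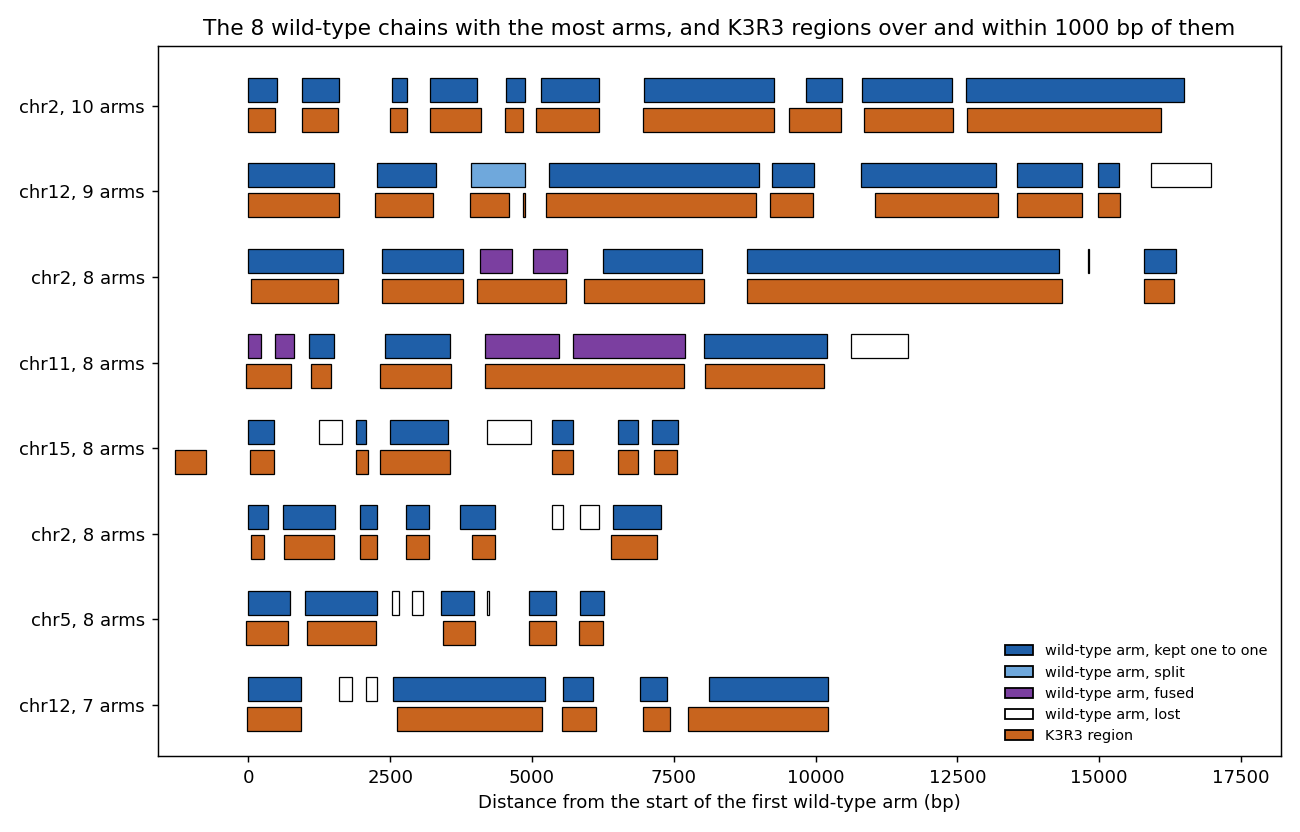
The 8 wild-type chains with the most arms, with ties taken by longer span, drawn to scale from the start of the first arm in bp; upper boxes are wild-type arms coloured by what K3R3 shows there (blue kept one to one, light blue split, purple fused, white lost), and lower orange boxes are K3R3 regions over the chain or within 1000 bp of it. The top chain keeps all 10 arms, and each of the other 7 has at least 1 white arm.

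The next 3 chains by number of arms each lost 1 arm. The chain with 9 arms on chromosome 12 (85108626 to 85125600) was also the one with the longest span, 16975 bp. There 7 arms were kept one to one, the arm of 950 bp was split into K3R3 regions of 700 and 25 bp, and the last arm, of 1050 bp, was lost from the looser list although a stricter K3R3 region covered 33.3% of it. The chain of 8 arms on chromosome 2 (167805676 to 167822025) lies in the densest window. In it K3R3 joined arms of 575 and 600 bp into a region of 1575 bp, kept the widest arm of 5500 bp with a region of 5550 bp, and lacked an arm of 25 bp. The chain on chromosome 11 (115738301 to 115749925) had 8 arms, of which 4 were fused in 2 neighbouring couples, 3 were kept one to one and the last, of 1000 bp, was lost from both K3R3 lists.

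The other 4 chains drawn lost inner arms and had no fused or split arm. A chain of 8 arms on chromosome 15 (100963201 to 100970775) spanned 7575 bp, and K3R3 lacked arms of 400 and 775 bp. Another with 8 arms, on chromosome 2 (115886001 to 115893275), spanned 7275 bp and lacked neighbouring arms of 200 and 325 bp. The last with 8 arms, on chromosome 5 (28491626 to 28497900), spanned 6275 bp and lacked arms of 125, 200 and 50 bp. In these 3 chains the remaining arms were kept one to one. A chain of 7 arms on chromosome 12 (86533226 to 86543450), drawn as the longest in span of the 16 with 7 arms, lacked arms of 225 and 200 bp in the looser K3R3 list, but stricter K3R3 regions covered both in full.

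Below the 3 longest spans, which belong to chains described above, came chains with fewer and wider arms. The chain of 6 arms on chromosome 17 (25509326 to 25524075) was covered to 89.7% and held an arm of 7475 bp, which K3R3 showed as regions of 6900 and 300 bp. K3R3 joined its arms of 2075 and 1300 bp and lacked the last arm of 100 bp, in front of which it had an added region of 25 bp directly touching the place of the lost arm. The chain of 6 arms on chromosome 2 (180963501 to 180976775) had arms of 1475 and 4850 bp joined under a K3R3 region of 6025 bp. Its arm of 1800 bp was split into regions of 400 and 1250 bp, and none was lost.

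In some chains a single K3R3 region lay over 4 arms. On chromosome 2 (157720576 to 157725100) arms of 2000, 1025, 50 and 325 bp lay under 1 K3R3 region of 5000 bp, which covered the whole chain. On chromosome 5 (30681726 to 30688975) 4 of 7 arms, of 75, 400, 525 and 525 bp, lay under a K3R3 region of 3325 bp and the other 3 were kept one to one. On chromosome 12 (113501851 to 113505425) 4 of 5 arms lay under a K3R3 region of 2850 bp, and the covered share rose from 46.2% in the wild type to 93.7% in K3R3. These 3 were chosen as the chains with the most arms under 1 region, so their size is no measure of how common this is.

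Others were absent from the looser K3R3 list as a whole. The one with the most arms was a chain of 5 arms on chromosome 15 (78607951 to 78612925), with arms of 2400, 75, 175, 150 and 300 bp. Neither K3R3 list had a region over any of them, and the nearest looser K3R3 region was 3425 bp from the chain. The chain of 3 arms on chromosome 5 (115642326 to 115645250), with arms of 325, 550 and 1100 bp, also had no region in either K3R3 list. The third, on chromosome 2 (91313601 to 91317925), had arms of 1425, 325 and 1950 bp, and a stricter K3R3 region covered 37.2% of its last arm.

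After the chain of 10 arms, the longest with every arm kept one to one were a chain of 7 arms on chromosome 11 (58851601 to 58859825) and one of 6 arms on the same chromosome (100121701 to 100131125). In the former K3R3 covered every arm in full and had a further region of 425 bp before the first arm, so that its own chain there had 8 arms. No chain held more than 1 added region. Besides the chain on chromosome 17, the longest with an addition were a chain of 7 arms on chromosome 11 (105207326 to 105215900), with an added region of 50 bp, and one of 4 arms on chromosome 2 (71376751 to 71385100), with an added region of 75 bp.

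The K3R3 chain with the most arms had no wild-type chain with as many. It had 11 arms on chromosome 4 (44568151 to 44579600), where the wild type had 6 regions, each over a single K3R3 arm. The 5 arms without a wild-type region were 275, 25, 525, 75 and 275 bp wide. Without them the remaining gaps were in part wider than 1000 bp, and the longest wild-type run there had 4 arms. Of the 9 arms of the K3R3 chain with the third most arms, on chromosome 14 (31967401 to 31982375), 1 of 250 bp was missing in the wild type, and the last 2, of 1500 and 1100 bp, lay under a wild-type region of 2850 bp.

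Around the limit of 1000 bp the values were as follows. The 81 chains whose largest gap was exactly 1000 bp had 293 arms, of which 75.1% were kept one to one and 16.4% were lost. The 72 runs that would become chains at 1025 bp had 223 arms, of which 81.6% were kept one to one and 11.7% were lost.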

How the data were processed

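Each library came with 2 deposited lists of enriched regions, named 1e-09 (looser) and 1e-12 (stricter) per the file headers, with chromosome, start and end only. The tools Bowtie 0.12.3 and bedtools and the build mm9 come from the submitters' processing notes. Which caller, filters and control produced the regions is not given in the sources used here. All starts and ends fall on 25 bp steps, and they are printed 1-based in mm9. Read depth is unknown. The looser lists were the main data. Runs, overlaps (at least 1 bp) and gaps were computed in Python 3.11.15 with numpy 2.4.6, pandas 2.3.3 and scipy 1.17.1 (figures with matplotlib 3.10.9), checked against bedtools 2.31.1 and tested on simulated data. Chains were named by rule: the 8 with most arms, the 5 of longest span, and 3 each with every arm one to one, every arm lost, most arms under 1 K3R3 region, and most added regions, with ties taken by longer span. The chains of K3R3 and the windows described were singled out after their values were seen. Members, lists and comparisons were chosen with earlier results of these data known. Chromosomes 6 and 8 and the sex chromosomes were left out, apart from an alternative with 6, 8 and X. The 7 alternatives concerned the list, gap limit, narrow regions, chromosomes, overlap and the other library's lists.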

Additional observations from a re-analysis of the deposited data

How the results depend on the processing

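No paired analysis was possible because wild type and K3R3 have 1 library each. Of 45 alternative values, 12 stayed near the reported ones (a count within 1.5 times, a share within the reported 95% interval) and 33 moved. The cause of the shifts was not tested, except that the gap limit defines the chains. Values follow in the order chains, percent of regions in chains, percent of span covered, percent of arms lost, one to one and fused, and percent of gaps bridged. The stricter lists gave 2616, 11.1%, 61.1%, 14.4%, 73.0%, 10.3% and 7.63%. A gap limit of 500 bp gave 1017, 3.91%, 72.9%, 15.6%, 63.8%, 18.4% and 14.4%, with 4 added regions. A limit of 2000 bp gave 4816, 21.9%, 48.3%, 15.3%, 75.0%, 7.78% and 5.50%, with 529 added regions. Leaving out regions under 100 bp gave 2172, 9.58%, 64.7%, 13.9%, 72.2%, 11.8% and 8.84%, with 33 added regions. All autosomes and X gave 3206, 11.0%, 63.3%, 18.2%, 69.2%, 10.0% and 7.41%. Requiring 50% of the arm to be covered gave 18.1% lost, 68.1% one to one and 11.9% fused. With both lists of the other library, 13.0% were lost and 57 added. The loss of arms under 200 bp was above that of lone regions in all 7 settings of lists, gaps, widths, chromosomes and overlap, the main one included, from 38.9% against 33.5% (limit 2000 bp) to 47.1% against 38.0% (all autosomes and X), and below it in each for chains built in K3R3. The ratio of K3R3 to wild-type chains was 1.23 to 1.39 and above that of regions in each. Chromosomes 6, 8 and X nevertheless held more wild-type than K3R3 chains. Adding them raised the chains from 2497 to 3206 in the wild type and from 3448 to 3958 in K3R3. The ratio fell from 1.38 to 1.23 for chains and from 1.21 to 1.14 for regions. Depth, which limits how many narrow arms can be called, is unknown.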
